A study of Mus musculus with 20 samples.

Results

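Transcripts of dendritic cells and macrophages were followed in kidney and liver of DBA/2J males, an inbred laboratory strain, that received the BET bromodomain inhibitor JQ1. The 10 genes were picked by symbol (Cd207, Clec9a, Flt3, Itgax, Csf1r, Adgre1, Clec4f, C1qa, Cd68 and Ptprc) out of 55642 genes in the files, in a list drawn up with earlier results of these samples known. Their levels and their contrasts are therefore given as a description, with no test. Mice had JQ1 at 50 mg/kg, or vehicle, each day for 3 weeks by intraperitoneal injection. The JQ1 treatment group was sampled when dosing ended, at an age of 10 weeks, and the JQ1 recovery group after 6 weeks without drug, at 16 weeks. Kidney and liver were each represented by 10 libraries, 3 from mice at the end of JQ1 dosing, 3 from mice after recovery and 4 from vehicle mice, pooled as the control. Of these 4, 3 came from the end of dosing and 1 from the recovery time, so the recovery animals were older than 3 of their 4 controls. Treatment against recovery sets mice of 10 weeks against mice of 16 weeks, so time since dosing and age cannot be told apart in it. The labels do not say whether organs with the same number came from the same mouse, nor whether any tissue was pooled.

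Dendritic cells take up antigen and present it to T cells, whereas resident macrophages clear dead cells and debris, and both depend on cytokine receptors for their upkeep, FLT3 on dendritic cell precursors and CSF1R on macrophages. The liver holds a large sessile macrophage population, the Kupffer cells in the sinusoids, and the kidney a network of interstitial phagocytes. In whole tissue, a lower level of such a transcript can mean fewer cells or less RNA per cell, and bulk libraries cannot tell these apart.

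Between 13952510 and 26895318 reads were assigned to genes in a kidney library, between 11968500 and 17529910 in a liver library, and 3 libraries stood apart. Levels are given as CPM, the reads of a gene relative to the size of its library after scaling within each organ. Kidney JQ1 treatment replicate 1 had a summed level of 1500 CPM over 22 pan-macrophage genes, against 759 to 948 CPM in the other 9 kidney libraries. Its 6 adipocyte genes summed to 731 CPM, against 96.2 to 381 CPM. Its 10 monocyte genes summed to 99.98 CPM, against 15.9 to 34.1 CPM. In the other kidney libraries the pan-macrophage genes Lyz2 (19.4 to 62.9 CPM) and Mrc1 (5.83 to 10.9 CPM) were a small part of their list's sum. Bulk libraries do not show which cells the rest came from. Liver JQ1 recovery replicates 2 and 3 held kidney transcripts. Kap, an androgen-regulated transcript of the proximal tubule, stood at 3541 and 2138 CPM there (unscaled), at 20.4 CPM in recovery replicate 1 and at 0.146 to 3.02 CPM in the other 7 liver libraries. Albumin (Alb) was lowest in those 2 libraries, at 18650 and 30730 CPM (unscaled) against 34020 to 52550 CPM in the rest. Many results that rest on these 3 libraries, though not all, are given with and without them. Summed levels of the lists show all 3 libraries.

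**Figure D1:**
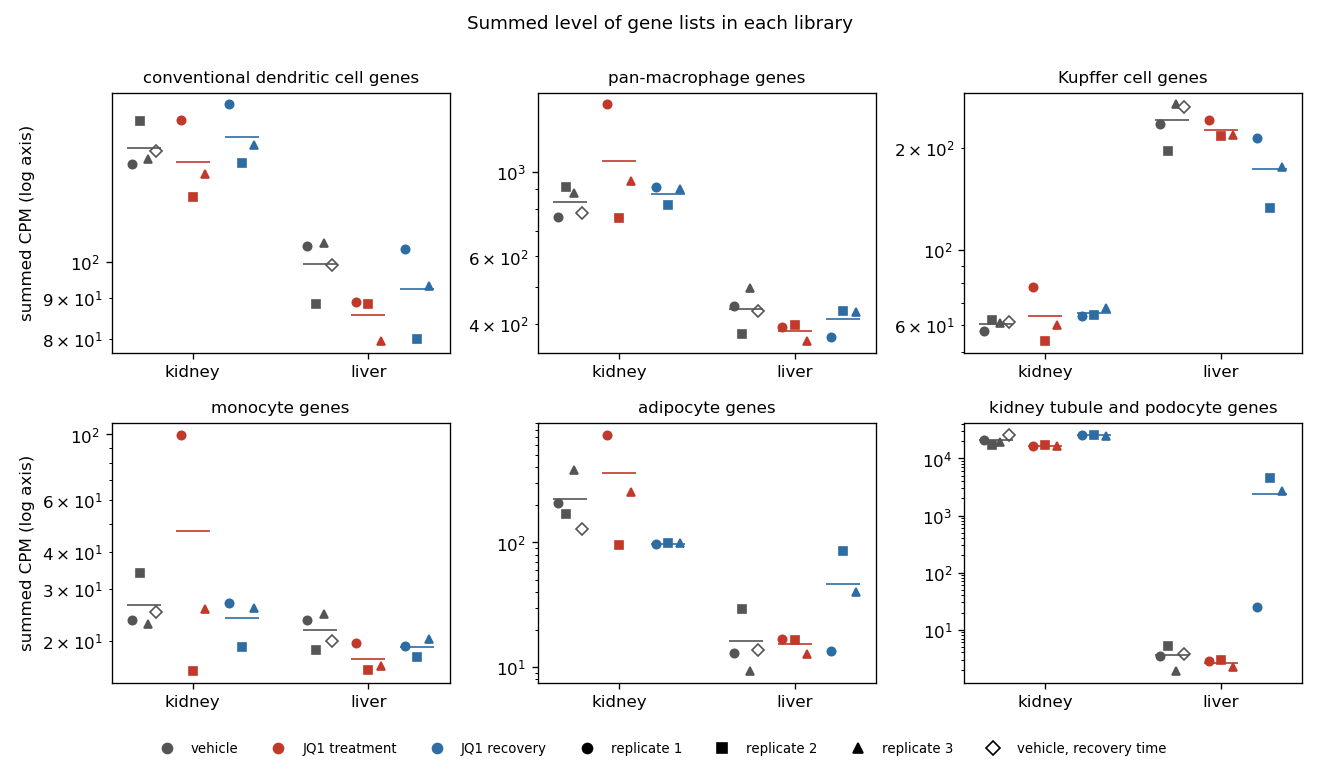
Summed level (CPM, log axis, scaled within each organ) of 6 gene lists in each of the 20 libraries, with horizontal bars at group means and marker shapes for replicates. Kidney JQ1 treatment replicate 1 lies above the other kidney libraries for pan-macrophage, monocyte and adipocyte genes, and liver JQ1 recovery replicates 2 and 3 carry kidney tubule and podocyte genes at 4478 and 2637 CPM.

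The start regions of 3 genes are shown because Cd207 and Clec9a were the members with the lowest levels relative to vehicle in JQ1-treated liver, while Clec4f, the direct neighbour of Cd207, stayed near its vehicle level. The Cd207 and Clec4f genes lie on the same strand of chromosome 6 with their starts 21741 bases apart and no other RefSeq gene starting between them. Each sequence runs 5′ to 3′ on the strand of the gene, with 250 bases before and 50 after the start, from RefSeq in GRCm38.p6. The windows are chr6:83677808-83678107 (minus strand) for Cd207, chr6:83656067-83656366 (minus strand) for Clec4f and chr6:129408612-129408911 (plus strand) for Clec9a. Capitals mark matches, on either strand, to any of 6 motifs. They were the box near many starts TATAAA, the core of sites for PU.1 and other ETS factors GAGGAA, the AP-1 site TGANTCA, an interferon-response type element, the ETS-IRF composite element, and the motif of NF-Y and related factors CCAAT.
Cd207: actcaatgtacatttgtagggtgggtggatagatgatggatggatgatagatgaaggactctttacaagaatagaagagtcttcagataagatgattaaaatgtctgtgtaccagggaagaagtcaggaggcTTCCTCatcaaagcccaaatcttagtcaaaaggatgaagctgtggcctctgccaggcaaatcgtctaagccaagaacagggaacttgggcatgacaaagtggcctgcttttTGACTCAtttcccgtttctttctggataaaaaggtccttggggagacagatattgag
Clec4f: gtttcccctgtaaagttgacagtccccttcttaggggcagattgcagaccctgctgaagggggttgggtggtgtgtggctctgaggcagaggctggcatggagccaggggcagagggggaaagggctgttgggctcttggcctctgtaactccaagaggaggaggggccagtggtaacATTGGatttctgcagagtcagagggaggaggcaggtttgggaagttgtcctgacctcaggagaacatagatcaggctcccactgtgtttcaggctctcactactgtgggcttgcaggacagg
Clec9a: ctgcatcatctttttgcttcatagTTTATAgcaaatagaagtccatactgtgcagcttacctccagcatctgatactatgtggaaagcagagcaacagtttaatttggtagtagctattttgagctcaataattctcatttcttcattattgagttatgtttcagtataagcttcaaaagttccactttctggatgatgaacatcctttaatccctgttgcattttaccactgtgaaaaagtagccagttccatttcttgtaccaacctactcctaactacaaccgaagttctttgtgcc
The Cd207 window held a GAGGAA match at bases 133 to 138 and a TGANTCA match at bases 244 to 250, directly before the start. Of all 32851 windows of this length 28.3% held the former and 7.81% the latter. The Clec4f window held only a CCAAT match (37.4% of windows) and the Clec9a window only a TATAAA match (13.6% of windows). The TATAAA match lay at bases 25 to 30, far before the start, on the strand opposite to the gene. The interferon-response and ETS-IRF composite elements, present in 3.44% and 2.72% of windows, were in none of the 3. A GAGGAA match can share bases with the composite element. A match describes letters and no factor binding was measured. Promoter windows were at hand for 7 of the 10 members.

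Of the dendritic cell transcripts Clec9a, Flt3 and Itgax were scarce in both organs, and Cd207 was detected in liver alone. Cd207 (ENSMUSG00000034783) encodes langerin, a lectin of Langerhans cells and of some other dendritic cells. It had no read in any kidney library. The 69801888 reads of the 4 kidney vehicle libraries set a limit of 0.043 CPM (3 reads over the group, counting error only), so its 3.27 CPM over the liver vehicle libraries was at least 76.0-fold higher. In liver the vehicle libraries of the treatment time held 46, 48 and 30 Cd207 reads (3.49, 3.47 and 1.80 CPM), and that of the recovery time 80 reads (4.63 CPM). The JQ1 treatment libraries held 6, 3 and 8 reads (0.435, 0.239 and 0.683 CPM), and the recovery libraries 62, 43 and 50 reads (4.28, 2.90 and 3.29 CPM). All 3 treated livers lay below every vehicle and every recovery liver. The mean was 7.41-fold lower in treated livers than in vehicle, a log2 fold change of -2.88 ± 0.44 (standard error), and across 15 alternative settings it ran from -3.27 to -2.58. After recovery the log2 fold change against vehicle was 0.06 ± 0.35, and 0.35 ± 0.48 from recovery replicate 1 alone. Recovery replicates 2 and 3 both lay within the vehicle range.

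Clec9a (ENSMUSG00000046080) encodes a receptor on conventional dendritic cells of type 1 that senses actin exposed by dying cells. In liver it stood at 0.684, 0.868 and 0.720 CPM in vehicle of the treatment time and 0.811 CPM in vehicle of the recovery time. JQ1 treatment libraries had 0.435, 0.160 and 0.0853 CPM, from 6, 2 and 1 reads, and recovery libraries 1.03, 0.202 and 0.788 CPM. Treated livers thus lay below all vehicle livers, while the recovery library at 0.202 CPM, replicate 2, which held kidney transcripts, lay among the treated ones. The log2 fold change of treatment against vehicle was -1.69 ± 0.71, and with single libraries left out it ran from -2.57 (without treatment replicate 1) to -1.34 (without treatment replicate 3). In kidney Clec9a had 8, 9 and 3 reads in vehicle of the treatment time and 6 in vehicle of the recovery time (0.136 to 0.562 CPM). Treated kidneys had 1, 0 and 3 reads (0 to 0.177 CPM) and recovered kidneys 20, 12 and 9 (1.16, 0.640 and 0.515 CPM). Treated kidneys overlapped vehicle through the library with 3 reads on each side, and lay below all recovered kidneys. The kidney log2 fold change was -2.29 ± 0.90 against vehicle and -3.30 ± 0.88 against recovery. With single libraries left out the former ran from -3.59 (without treatment replicate 3) to -1.53, and the latter from -4.60 to -2.54. With length-scaled TPM in place of counts the former was -0.92. At these read numbers a zero library allows up to 3 reads.

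Flt3 (ENSMUSG00000042817), the receptor for FLT3 ligand, and Itgax (ENSMUSG00000030789), which encodes CD11c, an integrin chain of dendritic cells and some macrophages, were near the limit of detection. Flt3 had 0 to 15 reads per kidney library and 0 to 5 per liver library, and did not pass the filter on low counts in either organ. Itgax had 7 to 21 reads per kidney library. It stood there at 0.759, 1.31, 0.318 and 0.578 CPM in vehicle, the last from the recovery time, and at 0.765, 0.374 and 0.412 CPM under treatment, which lay within the vehicle range. Its log2 fold change in kidney was -0.53 ± 0.57, and -0.88 ± 0.66 without treatment replicate 1. With 0 to 6 reads per liver library it did not pass the filter there.

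**Figure D2:**
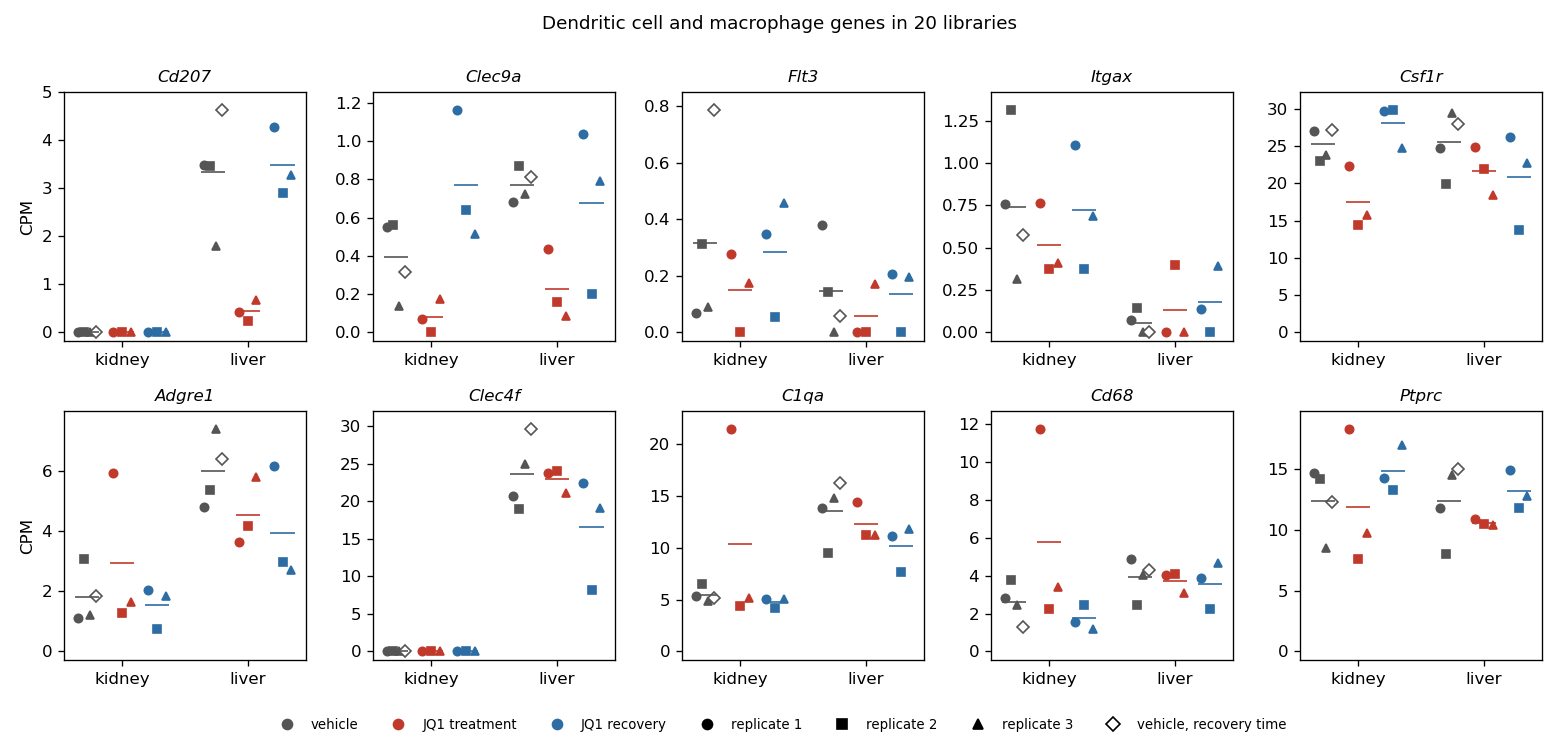
CPM (scaled within each organ) of the 10 genes in the 20 libraries, by organ and group, with bars at group means, marker shapes for replicates and open diamonds for the vehicle library of the recovery time. Treated livers lie at 0.239 to 0.683 CPM for Cd207 against 1.80 to 4.63 CPM in vehicle, and kidney treatment replicate 1 lies above the other kidney libraries for C1qa, Cd68, Adgre1 and Ptprc.

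Csf1r (ENSMUSG00000024621), the receptor for CSF1 and IL-34 on which most tissue macrophages depend, was lower in treated kidney. Vehicle kidneys of the treatment time had 27.1, 23.1 and 23.9 CPM and that of the recovery time 27.2 CPM. Treated kidneys had 22.3, 14.4 and 15.8 CPM, and recovered kidneys 29.7, 29.9 and 24.8 CPM. All treated kidneys lay below all others, with replicate 1, the library rich in other macrophage transcripts, nearest to vehicle. The log2 fold change was -0.54 ± 0.13 against vehicle, -0.75 ± 0.12 without treatment replicate 1, and -0.70 ± 0.14 against recovery. Against vehicle it was 0.16 ± 0.13 after recovery. In liver Csf1r stood at 24.8, 20.0, 29.4 and 28.0 CPM in vehicle, the last from the recovery time, and at 24.8, 21.9 and 18.4 CPM under treatment. These groups overlapped and the log2 fold change was -0.23 ± 0.20.

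Csf1r reads were spread over different transcript models in each organ. In vehicle kidney the full-length model Csf1r-202 (4701 bases) took 87.6% of the gene's reads but 38.0% of its TPM (a measure per length, 29.6% to 48.2% over 4 libraries). The short models Csf1r-206 (465 bases, annotated as a processed transcript) and Csf1r-203 (776 bases) took 33.2% and 28.6% of the TPM. In vehicle liver Csf1r-202 took 91.8% of the TPM and Csf1r-206 had none. Csf1r-202 alone stood at 3.71 ± 0.372 TPM (SD, n = 4) in vehicle kidney, 2.39 ± 0.602 (n = 3) in treated kidney and 4.07 ± 0.440 (n = 3) in recovered kidney, so treated kidneys (1.86 to 3.04 TPM) also lay below vehicle (3.33 to 4.07 TPM) on this model. Salmon assigns shared reads to models by estimation, so such shares are estimates.

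Adgre1 (ENSMUSG00000004730) encodes F4/80, a surface receptor used to identify mouse macrophages. In liver it had 4.79, 5.36, 7.38 and 6.37 CPM in vehicle, the last from the recovery time. Treated livers had 3.62, 4.15 and 5.80 CPM and recovered livers 6.14, 2.97 and 2.69 CPM. Treated livers overlapped vehicle (log2 fold change -0.41 ± 0.30). Both recovery libraries with kidney transcripts lay below vehicle, the log2 fold change of recovery against vehicle being -0.61 ± 0.30 with them and 0.03 ± 0.33 without them. In kidney Adgre1 stood at 1.104 to 3.06 CPM in vehicle and at 5.91, 1.27 and 1.65 CPM under treatment.

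Clec4f (ENSMUSG00000014542), a lectin that in mouse is restricted to Kupffer cells, had no read in kidney and was at least 545-fold higher in liver (23.4 CPM over the vehicle libraries against the kidney limit of 0.043 CPM). Vehicle livers had 20.7, 19.0, 25.0 and 29.6 CPM, the last from the recovery time, and treated livers 23.8, 24.0 and 21.1 CPM, within the vehicle range. The log2 fold change was -0.04 ± 0.28, and -0.05 ± 0.14 with both libraries that held kidney transcripts left out of the shared fit. Recovered livers had 22.4, 8.16 and 19.1 CPM. Replicate 2, with the most kidney transcripts, was the lowest of the 10 livers. The log2 fold change of recovery against vehicle was -0.51 ± 0.29 with all 3 libraries and -0.08 ± 0.21 with replicate 1 alone. Clec4f and its neighbour Cd207 were therefore far apart in treated liver, at 0.974 and 0.135 of their vehicle means.

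C1qa (ENSMUSG00000036887), which encodes a chain of the complement component C1q made largely by macrophages, and Cd68 (ENSMUSG00000018774), a glycoprotein of macrophage endosomes and lysosomes, were high in a single treated kidney. C1qa stood at 5.31, 6.50, 4.85 and 5.15 CPM in vehicle kidney, at 21.5, 4.37 and 5.18 CPM under treatment and at 5.05, 4.16 and 5.09 CPM after recovery. Cd68 stood at 2.83, 3.75, 2.45 and 1.31 CPM in vehicle, at 11.8, 2.24 and 3.41 CPM under treatment and at 1.57, 2.46 and 1.20 CPM after recovery. In both genes treatment replicate 1 lay above all other kidneys and replicates 2 and 3 lay within or just under the vehicle range. The log2 fold changes against vehicle were 0.90 ± 0.53 for C1qa and 1.14 ± 0.58 for Cd68 with replicate 1, and -0.19 ± 0.20 and 0.13 ± 0.37 without it. That of Adgre1 went from 0.67 ± 0.56 to -0.31 ± 0.45. The same library was high in adipocyte genes, among them Adipoq, the adipocyte hormone adiponectin (33.5 CPM unscaled against 1.12 to 10.3 CPM), whose part in these values was not tested. In liver C1qa (11.2 to 14.4 CPM under treatment, 9.48 to 16.2 CPM in vehicle) and Cd68 (3.07 to 4.07 against 2.46 to 4.86 CPM) lay within the vehicle range, with log2 fold changes of -0.14 ± 0.20 and -0.07 ± 0.30.

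Ptprc (ENSMUSG00000026395) encodes CD45, a phosphatase on all nucleated blood cells, and so follows leukocytes of every kind. Vehicle livers had 11.8, 8.03, 14.5 and 15.0 CPM, treated livers 10.9, 10.4 and 10.4 CPM and recovered livers 14.9, 11.8 and 12.8 CPM. The treated livers lay close together, inside the vehicle range and below all recovered livers. The log2 fold change against vehicle was -0.22 ± 0.19. In kidney it was -0.08 ± 0.30, and -0.51 ± 0.20 without treatment replicate 1, which at 18.3 CPM was the highest of the 10 kidneys. Reads of Ptprc were divided among several transcript models. The coding models Ptprc-203 and Ptprc-204 took 0 to 54.6% and 0 to 59.1% of the gene's TPM in vehicle kidneys, so this division was not stable between libraries of a group. The model Ptprc-201, annotated as a retained intron, took 36.2% of the TPM in vehicle kidney and 31.8% in vehicle liver.

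**Figure D3:**
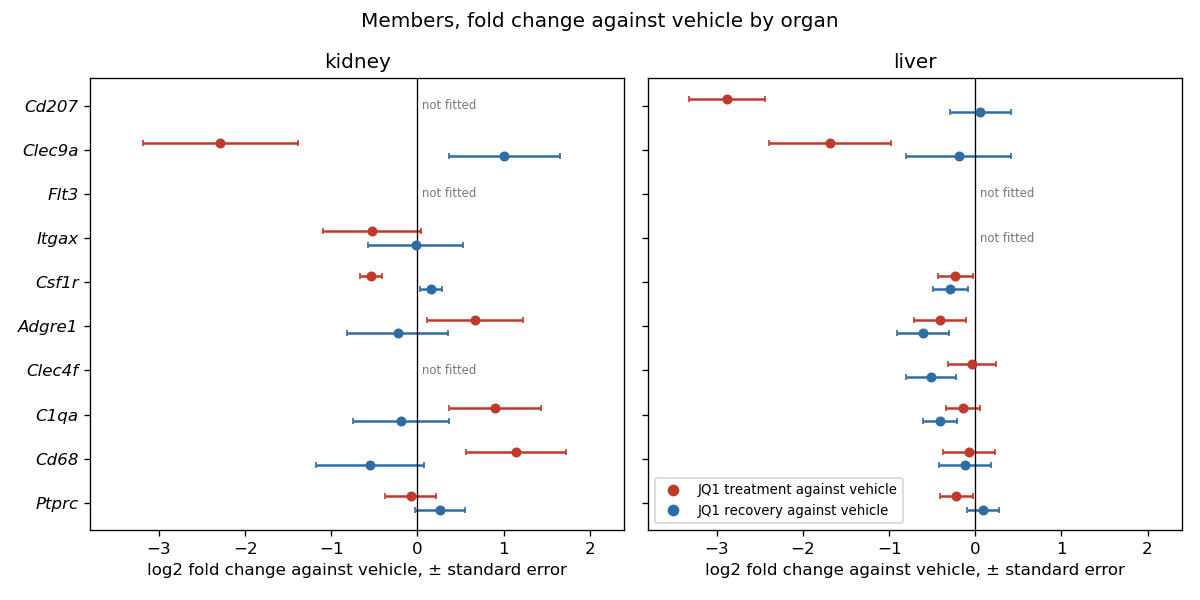
Log2 fold change ± standard error against vehicle for the members that passed the filter on low counts, in kidney (left) and liver (right), for JQ1 treatment (red) and JQ1 recovery (blue). In liver Cd207 (-2.88) and Clec9a (-1.69) lie farthest below 0 under treatment, while the macrophage genes lie between -0.41 and -0.04.

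Counted over the members, 7 could be fitted in kidney and 8 in liver. In treated kidney 1 of 7 (Csf1r) was past an adjusted p of 0.05 on the lower side, a call that 2.73% of all 17158 kidney genes shared. In treated liver 1 of 8 (Cd207) was, against 0.234% of 14559 genes. Groups that did not overlap were found for Csf1r in kidney (8.31% of all genes lay lower without overlap) and for Cd207 and Clec9a in liver (6.13%). Against recovery, Clec9a and Csf1r were past the threshold in kidney (4.91% of all genes were, on the lower side) and Cd207 in liver (0.989%). In that comparison the groups did not overlap for Clec9a and Csf1r in kidney (14.7% of all genes lay lower without overlap) and for Cd207 and Ptprc in liver (9.99%). After recovery 0 members were past it against vehicle in either organ, where 0.00583% and 0.0343% of all genes were. Nothing is read from these counts, since these contrasts were known when the genes were chosen.

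The genes ranked by TPM, which allows comparison between genes, in a different order in each organ. In vehicle liver C1qa had the highest median (7.86 TPM), then Clec4f (4.59), Csf1r (2.85), Cd68 (1.88), Cd207 (1.31), Ptprc (1.25), Adgre1 (0.949), Clec9a (0.112), Flt3 (0.0148) and Itgax (0.0044). The 4 libraries separated each of the first 3 from the gene that followed it, whereas Cd68, Cd207, Ptprc and Adgre1 overlapped from each to the next. In vehicle kidney Csf1r led (10.8 TPM with its short models), followed by C1qa (4.95), Ptprc (2.08), Cd68 (2.02), Adgre1 (0.384), Itgax (0.132), Clec9a (0.106) and Flt3 (0.0436), with Cd207 and Clec4f at 0. Ptprc overlapped Cd68, and Itgax, Clec9a and Flt3 overlapped in turn. By its full-length model alone Csf1r in kidney (3.33 to 4.07 TPM) would come below C1qa (4.63 to 6.03 TPM).

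Other genes of the same cells were tested, with p-values adjusted over all genes. These lists, like the members, were drawn up with earlier results of the samples known, so their calls are not independent evidence of a direction. In treated kidney, where 2.73% of all genes fell and 1.4% rose, 1 of 15 measured conventional dendritic cell genes fell and 0 rose. It was Mgl2, a lectin of type 2 dendritic cells and macrophages, which stood at 1.56 to 2.96 CPM in vehicle and at 0.557, 0.822 and 0.647 CPM under treatment (log2 fold change -1.67 ± 0.35, adjusted p = 0.0084). With length-scaled TPM its adjusted p was 0.454. Of 21 pan-macrophage genes 1 fell, the fractalkine receptor Cx3cr1 (7.38 to 10.1 CPM in vehicle, 5.84, 4.04 and 5.12 CPM under treatment, log2 fold change -0.83 ± 0.18, adjusted p = 0.0107). Its adjusted p was 0.0511 without treatment replicate 2. Of 7 genes listed for Kupffer cells 1 fell in kidney, Nr1h3, which encodes the oxysterol receptor LXRα, which is found in many tissues (-0.57 ± 0.13, adjusted p = 0.0128, and 0.0549 without treatment replicate 1). Of 7 monocyte genes, 4 plasmacytoid dendritic cell genes and 19 leukocyte signalling genes 0 passed the test (0, 2 and 1 at an unadjusted p below 0.05). The lowest adjusted p among them belonged to F13a1 (2.27 ± 0.99, adjusted p = 0.307), Siglech (-1.39 ± 0.51, 0.152) and Cd52 (-0.70 ± 0.26, 0.169). Without treatment replicate 1 F13a1 stood at -0.08 ± 0.32, Siglech at -1.94 ± 0.56 and Cd52 at -0.97 ± 0.27.

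The median of these kidney lists moved with treatment replicate 1. Of the 21 pan-macrophage genes 17 had a log2 fold change above 0 with it (median 0.18) and 6 without it (median -0.25). The median over all genes tested was -0.01. Without it 2 pan-macrophage genes passed, Cx3cr1 (-0.96 ± 0.20, adjusted p = 0.00837) and the high-affinity Fc receptor Fcgr1 (-4.26 ± 0.88, adjusted p = 0.00899, from 1 read in each of the 2 remaining treated kidneys and 7 to 27 reads in vehicle), and 2 of 16 conventional dendritic cell genes, Mgl2 (-1.56 ± 0.39, adjusted p = 0.032) and Wdfy4 (-2.16 ± 0.57, adjusted p = 0.047), a gene needed for cross-presentation. Nr1h3 no longer passed. Csf1r lay below 0 with and without that library.

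**Figure D4:**
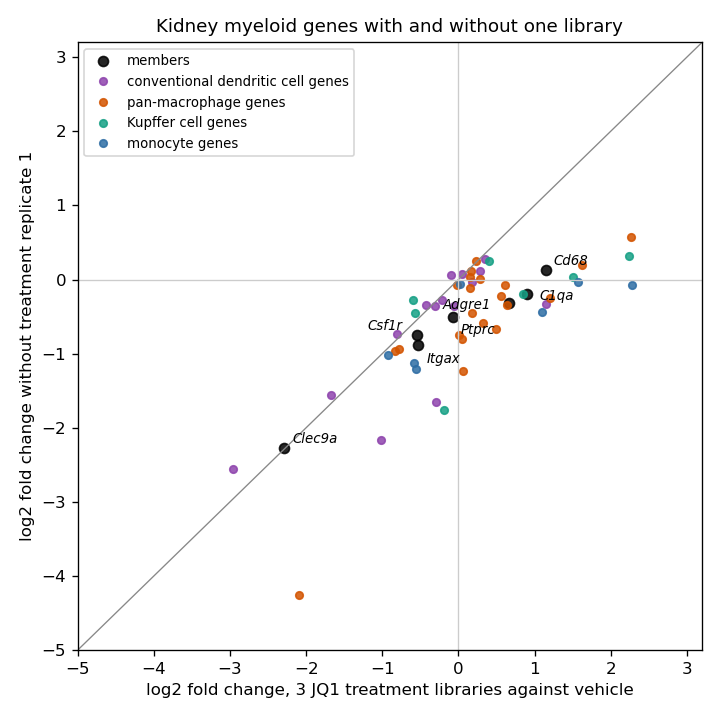
Log2 fold change of JQ1 treatment against vehicle in kidney for the members and 4 myeloid gene lists, with all 3 treatment libraries (x axis) and without treatment replicate 1 (y axis), with a diagonal of equal values. C1qa (0.90 and -0.19), Cd68 (1.14 and 0.13) and Adgre1 (0.67 and -0.31) lie far below the diagonal, and Clec9a (-2.29 and -2.28) lies on it.

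Of 12 growth factors and chemokines that act on myeloid cells 4 fell in treated kidney and 0 rose. Ccl5, a chemokine of T cells and other leukocytes, stood at 4.69, 3.62, 2.22 and 2.21 CPM in vehicle and at 0.974, 0.486 and 0.471 CPM under treatment (-2.33 ± 0.40, adjusted p = 0.00183). Ccl21a (-1.06 ± 0.23, adjusted p = 0.0111) and Ccl19 (-0.89 ± 0.23, adjusted p = 0.0377) encode ligands of CCR7 that guide dendritic cells along lymphatics. Cxcl16 was the fourth (-0.43 ± 0.12, adjusted p = 0.0477). Leaving out single libraries removed the call in 1 of 7 cases for Ccl21a, 5 of 7 for Ccl19 and 6 of 7 for Cxcl16, and in none for Ccl5. The ligands of CSF1R, singled out after their values were seen, did not pass against vehicle. Csf1 stood at 6.08 to 6.90 CPM in vehicle and at 13.9, 5.23 and 4.71 CPM under treatment, again highest in replicate 1. Il34, the ligand made by epithelial cells, stood at 17.6, 15.6, 10.1 and 28.9 CPM in vehicle and at 8.55, 7.29 and 5.77 CPM under treatment (-1.33 ± 0.34, adjusted p = 0.0737). Against recovery (27.9, 26.3 and 24.3 CPM) Il34 was lower (-1.86 ± 0.35, adjusted p = 0.0165), a call lost in 5 of 6 cases on leaving out a library. The treated and recovered mice also differed in age, and the vehicle kidneys alone spanned 10.1 to 28.9 CPM. MHC class II genes, which dendritic cells, macrophages and B cells use to present antigen, fell in 7 of 7 cases (median log2 fold change -2.40, lowest adjusted p for H2-DMb1, 0.000164), and in 6 of 7 without treatment replicate 1 (H2-Ab1 then at -2.45 ± 0.47, adjusted p = 0.057). Lymphocyte genes lay lower beside them. All 4 measured T and NK cell genes and all 7 B and plasma cell genes were below 0 in treated kidney, of which 1 passed, Gzma, a granzyme (-2.85 ± 0.70, adjusted p = 0.0262). Without treatment replicate 1 Gzma no longer passed (-2.66 ± 0.78, adjusted p = 0.0793). The B and plasma cell gene Ighm then did (-1.35 ± 0.25, adjusted p = 0.00358). Summed T and NK cell genes stood at 1.88 to 2.61 CPM under treatment against 3.84 to 7.69 CPM in vehicle. Summed B and plasma cell genes stood at 5.62 to 11.9 against 12.2 to 23.2 CPM. The part of these lymphocyte genes in the lower values of the other lists was not tested.

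In kidney, treatment against recovery, where the groups also differed in age, gave 4.91% of all genes lower. It gave 2 of 15 conventional dendritic cell genes lower, Mgl2 (-1.87 ± 0.36, adjusted p = 0.00345) and Cadm1 (-0.66 ± 0.14, adjusted p = 0.0078). Cadm1 encodes an adhesion molecule of type 1 dendritic cells and epithelia. The same comparison gave Cx3cr1 lower (-0.74 ± 0.19, adjusted p = 0.0229) among 21 pan-macrophage genes and Nr1h3 lower (-0.88 ± 0.13, adjusted p = 0.000421) among 7 Kupffer cell genes. Leaving out single libraries removed the call in 4 of 6 cases for Cx3cr1 (each of treatment replicates 2 and 3 and recovery replicates 1 and 3, highest adjusted p = 0.123) and in 1 of 6 for Cadm1 (recovery replicate 1, adjusted p = 0.0533), and in 0 for Mgl2 and Nr1h3. Of the growth factors and chemokines Ccl5 (-2.36, adjusted p = 0.00164), Xcl1 (-2.52, adjusted p = 0.0337) and Ccl19 (-0.86, adjusted p = 0.0406) were lower beside Il34. After recovery 0 genes of these lists passed against vehicle, the lowest adjusted p being that of Ccr7, the chemokine receptor of migrating dendritic cells (-3.17 ± 0.93, adjusted p = 0.287). At an unadjusted p below 0.05 there were 2 of 15 conventional dendritic cell genes, 1 of 21 pan-macrophage genes and 1 of 7 Kupffer cell genes.

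In treated liver 0 of 10 conventional dendritic cell, 2 plasmacytoid dendritic cell, 21 pan-macrophage, 12 Kupffer cell, 8 monocyte, 8 growth factor and chemokine and 18 leukocyte signalling genes passed. At an unadjusted p below 0.05 there were 0, 0, 3, 1, 2, 1 and 1. The lowest adjusted p in each of the main lists belonged to Irf8 (-0.45 ± 0.26, adjusted p = 0.644), a transcription factor of type 1 dendritic cells, Mpeg1 (-0.66 ± 0.19, adjusted p = 0.198), which encodes perforin-2, Nr1h3 (-0.34 ± 0.13, adjusted p = 0.413), Itgam (-1.90 ± 0.59, adjusted p = 0.243), which encodes CD11b, and Ccl5 (-3.03 ± 0.74, adjusted p = 0.107). The summed Kupffer cell list stood at 218 to 242 CPM in treated and 196 to 270 CPM in vehicle liver, inside the vehicle range, and the summed pan-macrophage list at 360 to 397 against 376 to 495 CPM. Of the 10 conventional dendritic cell genes 8 lay below 0 (median -0.25, against 0.00 over all genes), among them Tlr3 (-0.54 ± 0.33, adjusted p = 0.662), Naaa (-0.40 ± 0.34, adjusted p = 0.794) and Cadm1 (-0.25 ± 0.15, adjusted p = 0.661). These and the next genes, all linked to type 1 dendritic cells, were singled out after their values were seen. Xcr1, the chemokine receptor of these cells, had 8.85 to 11.5 CPM in treated and 10.2 to 11.5 CPM in vehicle liver, and Batf3, a transcription factor they need, 0 to 0.362 against 0 to 0.145 CPM.

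The shared fit for liver included both recovery libraries with kidney transcripts. Without them 358 genes passed between treatment and vehicle in liver in place of 73, and the member values changed little (Cd207 -2.89 ± 0.44, Clec9a -1.70 ± 0.74). Of 22 pan-macrophage genes 1 then fell, Mpeg1 (-0.67 ± 0.14, adjusted p = 0.0144), at 15.1 to 20.4 CPM in vehicle and 10.1, 12.0 and 12.0 CPM under treatment. Of 11 conventional dendritic cell genes and 12 Kupffer cell genes 0 passed. Of these 11 dendritic cell genes 9 lay below 0, while Ly75 (0.25 ± 0.31) and Fscn1 (0.25 ± 0.31) lay above it. MHC class II genes passed in 1 of 7 cases with these libraries (Cd74, -2.56 ± 0.43, adjusted p = 0.033, lost on leaving out 6 of 7 libraries in turn) and in 4 of 7 without them (median -2.57). Without them all 6 T and NK cell genes and all 8 B and plasma cell genes also lay below 0, and Cd4 (-2.60 ± 0.67, adjusted p = 0.0449) and Igkc, the immunoglobulin kappa constant region (-3.02 ± 0.37, adjusted p = 0.000514), passed. Summed levels in liver were 1.20 to 1.60 CPM under treatment against 4.91 to 6.30 CPM in vehicle for T and NK cells, and 5.38 to 6.54 against 15.9 to 39.0 CPM for B and plasma cells, and their part in the lower values was not tested.

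Recovered liver against vehicle gave 0 calls in every myeloid list, with all 12 Kupffer cell genes below 0 (median log2 fold change -0.52, against 0.02 over all genes, 5 at an unadjusted p below 0.05). The lowest adjusted p was shared by Lyz2 (-0.48), Slc40a1 (-0.46) and Kitl, the ligand of KIT (0.92), at 0.129. Without recovery replicate 1, which leaves only the libraries with kidney transcripts, 9 listed dendritic cell, macrophage and monocyte genes passed. From recovery replicate 1 alone 8 of 12 lay below 0 (median -0.14). Kupffer cell genes summed to 214 CPM in recovery replicate 1 and to 133 and 176 CPM in the 2 libraries with kidney transcripts, whose part in the lower values was not tested further. Between treatment and recovery the iron exporter Slc40a1, of Kupffer cells and other cells, was higher under treatment (0.59 ± 0.13, adjusted p = 0.0313), and its adjusted p was 0.382 without those libraries. Leaving out single libraries removed the call in 4 of 6 cases (each treatment library and recovery replicate 3).

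The treatment effect was compared between organs over all 20 libraries. Of 17710 genes 30 differed, or 0.169%, and 0 of the 30 were list genes. The members were not tested. At an unadjusted p below 0.05 there were 1 of 14 conventional dendritic cell genes, 4 of 22 pan-macrophage genes and 2 of 13 Kupffer cell genes and 2 of 9 monocyte genes. The lowest adjusted p among these belonged to Itgam (3.49 ± 1.02, adjusted p = 0.286), followed by Lyz2, macrophage lysozyme (2.54 ± 0.81, adjusted p = 0.406). Lyz2 stood at 317 CPM (unscaled) in kidney treatment replicate 1 and at 19.0 to 60.0 CPM in the other kidneys. Without that library the log2 fold change of Itgam in kidney, treatment against vehicle, was -0.03 ± 0.54. Cd207 and Clec4f, which kidney lacks, could not be compared.

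Between the organs of vehicle mice 61.8% of all genes differed, 32.1% being higher and 29.6% lower in kidney. Kupffer cell genes were lower in kidney in 12 of 13 cases and higher in 0 (median log2 difference -4.05), led by Slc40a1 (-2.10 ± 0.13, adjusted p = 1.52e-11), Clec1b (-6.35 ± 0.51, adjusted p = 1.03e-09), Nr1h3 (-1.62 ± 0.13, adjusted p = 1.13e-09) and Vsig4 (-8.95 ± 0.62, adjusted p = 1.45e-09). Of 22 pan-macrophage genes 14 were lower in kidney, among them Mpeg1 (-3.37 ± 0.37, adjusted p = 5.49e-07), and 3 were higher, among them the transcription factor Maf (2.09 ± 0.21, adjusted p = 2.22e-07). Of 14 conventional dendritic cell genes 5 were higher in kidney and 2 lower, with Cadm1 lower (-2.03 ± 0.15, adjusted p = 2.92e-10) and Mgl2 higher (4.55 ± 0.74, adjusted p = 1.92e-05). Of the 11 growth factors and chemokines 3 were lower in kidney and 8 were higher. The lower ones were Csf1 (-0.78 ± 0.28, adjusted p = 0.018), Flt3l (-0.79 ± 0.27, adjusted p = 0.0161) and Cxcl9 (-2.99 ± 0.60, adjusted p = 0.000395). The higher ones included Il34 (3.62 ± 0.38, adjusted p = 1.25e-07) and Cx3cl1, the ligand of CX3CR1 (5.80 ± 0.64, adjusted p = 8.19e-07). These differences were scaled over both organs together, whereas CPM was scaled within each organ. Csf1r, with means of 25.29 CPM in vehicle kidney and 25.53 CPM in vehicle liver, differed by -0.80 in this fit. Ptprc, at 12.4 and 12.32 CPM, differed by -0.79. The differences of Csf1 and Flt3l were of this size and so rest on the scaling between organs.

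Likeness of pattern was taken as Pearson's r of log2 CPM over the 10 libraries of an organ, as a description. For Cd207 in liver the closest genes were Bcl11a, a transcription factor of lymphoid and dendritic cell development (r = 0.963), the gene with identifier ENSMUSG00000121034 (0.949) and A930038B10Rik (0.946). Bcl11a stood at 0.399 to 1.38 CPM in vehicle liver and at 0.211, 0 and 0.158 CPM in treated liver (unscaled). The lists held 0 of the 50 genes closest to Cd207. For Clec4f the closest were Vsig4, a complement receptor of Kupffer cells (0.977), Serping1 (0.973) and Cpn2 (0.970), with 5 of the closest 50 in the lists. For C1qa in liver they were Cd5l, a protein secreted by macrophages (0.947), AI661453 (0.936) and Hpx (0.931), with 8 of 50. Liver recovery replicate 2, which held kidney transcripts, was the lowest liver for Clec4f (8.16 CPM), Vsig4 (6.14 CPM) and C1qa (7.69 CPM). The part of that library in these r values was not tested. For C1qa in kidney the closest were Fn1 (0.976), Antxr1 (0.970) and Dcn (0.968), genes of connective tissue and its matrix, with 9 of 50 in the lists. Fn1 stood at 44.8 CPM (unscaled) in treatment replicate 1 and at 8.80 to 14.4 CPM in the other kidneys, so this likeness follows that library. For Adgre1, Cd68 and Ptprc in kidney the closest were Slfn2 (0.951), Hpse (0.968) and Rnaseh1 (0.928). Treatment replicate 1 was the highest kidney for each of these members too (5.91, 11.8 and 18.3 CPM), and its part in these r values was not tested. For Csf1r in kidney they were 9130204K15Rik (0.950), Slc30a4 (0.943) and Gm26740 (0.937), with Ccl5 and Ccl19 among the closest 50. The libraries behind each r come from the same organ and span all 3 groups, so each r includes the differences between groups.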

How the data were processed

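Total RNA was extracted from kidney and liver and poly(A)-selected mRNA was sequenced by the authors, and the labels gave every sample its group. The authors trimmed reads with fastp 0.20.1 and quantified transcripts with Salmon 1.10.0 against GENCODE mouse transcripts; the submitters' processing notes name mm10. Each deposited file holds, per transcript, an estimated count of reads, the TPM (transcript abundance divided by effective length and scaled to a fixed total by Salmon) and the effective length. Estimated counts were summed over the 147833 transcripts into 55642 genes and rounded to whole numbers. Genes were kept by filterByExpr (minimum count 10, minimum total 15), and edgeR 4.0.16 (R 4.3.3, limma 3.58.1) was fitted over all 10 libraries of an organ, or all 20 for contrasts of organs, with TMM scaling and the quasi-likelihood test, two-sided. P-values were adjusted by Benjamini-Hochberg over all genes kept, with a threshold of 0.05. The standard error of a log2 fold change was its absolute value divided by the square root of that test's F statistic. The standard errors of the members were obtained in the same way and so are not independent of that test. Deposited TPM was used only to compare genes and transcript models. The procedure was tested on simulated data.

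The members and gene lists were chosen with earlier results of these data known, so the members carry no p-value and the calls in the lists are not independent evidence. In each list the genes named were up to 4 with the lowest adjusted p among those that passed, or the one with the lowest where none did. P-values measure the spread between libraries, and the labels give no sequencing batch. The group ages and times follow the labels; a supplementary legend of the study differs from them in the vehicle numbers per time and in the length of recovery. Alternatives were DESeq2 1.42.0, RLE size factors, no filter, length-scaled TPM counts, only the groups compared, controls of the same time, a replicate block and leaving out each library. The fit without both liver recovery libraries that held kidney transcripts was chosen after seeing the data. Intervals of detection cover counting error only. Figures were drawn with matplotlib 3.10.9.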

Additional observations from a re-analysis of the deposited data

How the results depend on the processing

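The log2 fold change of Cd207 in treated liver stayed between -3.27 and -2.58 over 15 alternatives, and that of Csf1r in treated kidney between -0.75 and -0.41 over 14. The Csf1r difference between kidney and liver of vehicle mice turned from -0.80 to 0.35 with length-scaled TPM counts, which weight the short kidney models. For the counts of genes called, the value over all genes comes first and that over listed dendritic cell, macrophage and monocyte genes is given where it moved. In kidney, treatment against vehicle (709, listed 3) gave 1085 and listed 6 without the filter, 432 with length-scaled TPM and 459 with only the groups compared. Recovery against vehicle (1) gave 112 with DESeq2, 182 without the filter, 0 with length-scaled TPM and 13 with only the groups compared. Treatment against recovery gave listed 8 with DESeq2, 8 without the filter and 2 with length-scaled TPM, in place of 4. In liver, treatment against vehicle (73, listed 0) gave 253 with DESeq2, 128 without the filter, 37 with length-scaled TPM, 368 and listed 1 with only the groups compared, 34 with controls of the same time, and 358 and listed 1 without both libraries that held kidney transcripts. Recovery against vehicle (5, listed 0) gave 768 and listed 4 with DESeq2, 226 and listed 3 without the filter, 2 with length-scaled TPM, 1 with only the groups compared, 1 with controls of the same time and 1 without both libraries. Treatment against recovery (334, listed 1) gave 1216 and listed 2 with DESeq2, 609 without the filter, 165 and listed 0 with length-scaled TPM, 33 and listed 0 with only the groups compared, and 138 and listed 0 without both libraries. The organ difference (30) gave 112 with DESeq2 and 118 without both libraries. The causes were not tested.

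With 1 library left out at a time, kidney treatment against vehicle gave 411 to 756 genes (listed 3 to 6), recovery against vehicle 0 to 240 (0 to 1) and treatment against recovery 675 to 1352 (2 to 10). Liver gave 15 to 35 (0 to 0), 0 to 2107 (0 to 9) and 17 to 2154 (0 to 3), the highest of the last 2 without recovery replicate 1. The organ difference gave 12 to 33 (0 to 0) and kidney against liver 10349 to 10582 (36 to 40).

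With the replicate block the counts were 0 for kidney recovery against vehicle, 42, 2 and 222 for liver treatment against vehicle, recovery against vehicle and treatment against recovery, and 3 for the organ difference. Same-numbered samples of different groups in an organ correlated between -0.132 and 0.102 in their deviations from the group means. Same-numbered kidney and liver samples of a group correlated between -0.067 and 0.04. With 3 libraries per group and different tissues, this could not show whether organs came from the same mouse. The numbers were not taken as pairs. Flt3 in both organs and Itgax in liver were too shallow for a fold change.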
